A study of Mus musculus with 45 samples.

Results

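The 47 genes described here are those whose symbols match the names of proteasome subunits and their partners (Psma, Psmb, Psmc, Psmd, Psme, Psmf or Psmg followed by a number), out of 15997 genes listed in at least 1 of 3 expression tables of mouse embryos after implantation. At E5.25, 45 of them were listed among 10176 genes, at E5.5, 46 among 13060 and at E5.75, 47 among 13618, and 45 were in all 3 tables. Psma8 was listed at E5.5 and E5.75, and Psmb9 at E5.75. By name, 17 were core genes (8 Psma and 9 Psmb), 24 were regulatory genes (Psmc, Psmd and Psme) and 6 were others. Psmc3ip matches by spelling only, since it encodes a partner of meiotic recombinases and no proteasome part. Psmb5, a catalytic subunit, was listed in the tables only as a row joined with the microRNA gene Mir686, which lies inside it, so it is not among the 47 and its values are those of the joined row.

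Untreated embryos of 3 stages, E5.25, E5.5 and finally E5.75, were freed from the decidua, frozen and cut into numbered sections along the proximal-distal axis. RNA of the laser-captured pieces was read by Smart-seq2, which copies whole transcripts from scarce RNA. The E5.75 samples also included 2 libraries labelled VE, the usual abbreviation of visceral endoderm, cut from sections 6 and 7. Used here were 7 sections of E5.25 embryos, 9 section numbers of E5.5, 17 sections of E5.75 and both VE libraries. The labels give no strain, name no separate embryos within a stage and do not place section 1 proximally or distally. The p-values therefore compare sections, not embryos, and directions are given in section number.

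The proteasome is the protease that destroys ubiquitin-tagged proteins. Its barrel-shaped core is built of outer alpha rings (Psma genes) and inner beta rings (Psmb genes), and Psmb5, Psmb6 and Psmb7 carry the cutting sites. A regulatory cap of ATPases (Psmc) and other subunits (Psmd) recognises, unfolds and feeds in the substrate. Cells exposed to interferon exchange the catalytic subunits for Psmb8, Psmb9 and Psmb10, which form the immunoproteasome, and make the activator PA28 alpha-beta (Psme1 and Psme2), which opens the core without ATP or ubiquitin. Psme3 encodes the nuclear activator PA28 gamma and Psme4 the activator PA200. The core is assembled by chaperones (Psmg1 to Psmg4), the base of the cap by others (Psmd5, Psmd9 and Psmd10), and Psmf1 encodes the inhibitor PI31. Every dividing cell needs the constitutive parts, and proteasome genes are best known as housekeeping genes.

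The promoters of Psme1 and Psme2, which fell at E5.75 (Psme2 when sections 1 and 2 were left out), and of catalytic subunits on both sides of the exchange are shown because the DNA signals known for this family lie in such windows. Promoter windows from RefSeq (GRCm38, the assembly also named mm10; 250 bases before to 50 bases after the gene's start) were present for 39 of the 47 genes. They are shown here from 100 bases before to 30 after the start, 5′ to 3′ on the gene's strand, with capitals for matches to the interferon-response motif (GAAA and GAAA parted by 2 bases), the STAT motif TTCNNNGAA or the antioxidant-response motif TGACNNNGC on either strand. No matches of different motifs overlapped.
Psme1, chr14:55578394-55578523, plus strand: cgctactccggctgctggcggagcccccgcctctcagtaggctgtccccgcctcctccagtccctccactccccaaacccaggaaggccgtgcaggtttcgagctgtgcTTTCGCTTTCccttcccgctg
Psme2, chr14:55591072-55591201, minus strand: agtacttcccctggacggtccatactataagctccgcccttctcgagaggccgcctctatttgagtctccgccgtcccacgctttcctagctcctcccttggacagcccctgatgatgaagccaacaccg
Psmb8, chr17:34198095-34198224, plus strand: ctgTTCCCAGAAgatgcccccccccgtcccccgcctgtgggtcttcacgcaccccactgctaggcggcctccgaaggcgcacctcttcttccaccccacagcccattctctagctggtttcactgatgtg
Psmb10, chr8:105938363-105938492, minus strand: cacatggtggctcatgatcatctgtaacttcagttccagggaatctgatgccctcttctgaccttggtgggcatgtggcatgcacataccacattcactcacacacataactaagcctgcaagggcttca
Psmb5, chr14:54617966-54618095, minus strand: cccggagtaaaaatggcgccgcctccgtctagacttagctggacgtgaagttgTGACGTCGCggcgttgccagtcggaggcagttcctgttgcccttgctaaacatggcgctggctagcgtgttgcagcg
Psmb6, chr11:70525257-70525386, plus strand: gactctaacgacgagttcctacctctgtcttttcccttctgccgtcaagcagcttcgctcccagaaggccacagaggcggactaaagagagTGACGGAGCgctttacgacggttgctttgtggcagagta
The interferon-response motif was present in the window of Psme1, on the opposite strand and starting 10 bases after the start, and in 5 of the 39 genes in all (also Psmb3, Psmd4, Psmd9 and Psmg4), against 3.44% of all 32851 windows. The shown windows of Psme2 and Psmb10 hold none of the 3 motifs. The STAT motif was found for Psmb8, Psmd2 and Psmg1, against 8.30% of all windows. The antioxidant-response motif was found for Psmb6, Psmc6, Psmd9, Psmd12 and Psme4, and in the window of Psmb5, against 12.4% of all windows. The CCAAT box was found for 14 of the 39 genes, against 37.4% of all windows. In these data Psmb8, the gene with the STAT motif among the sequences shown, was near 0 in most sections, while Psmb5 and Psmb6 were high, as given below. Psmd2 and Psmg1, which also have the STAT motif, averaged 40.0 and 24.0 FPKM at E5.75. Psmc6, Psmd12, Psme4 and Psmd9, which also have the antioxidant-response motif, averaged 28.9, 21.9, 9.01 and 3.62 FPKM there. A link between motif and level was not tested.

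Low-numbered sections yielded fewer genes, and fewer proteasome genes were detected in them. Detection here means an FPKM of at least 1. At E5.25, 14, 16, 33 and 24 of 45 proteasome genes were detected in sections 1, 2, 3 and 4, against 43, 42 and 40 in sections 6, 7 and 8. At E5.5 the counts were 10 in section 1, 23 in section 2 and 36 to 44 of 46 in the others. At E5.75 they were 21 and 26 of 47 in sections 1 and 2 and 39 to 46 in the others. The share of all genes of the table that was detected was also lower there, at 20.1% to 42.1% in sections 1 to 4 of E5.25, 17.5% in section 1 of E5.5 and 23.6% in section 1 of E5.75, against up to 63.5%, 48.8% and 60.3% in later sections of these stages. The proteasome genes' part of the summed FPKM, leaving out the ribosomal RNA precursor Rn45s, was 0.152% to 1.08% over all sections. Constitutive core genes such as Psmb3 were listed at 0 in section 1 of E5.5 and E5.75, so a 0 is given as a listing only, and the part of detection in the changes with section number was not tested except by the fits named beside them. As bulk samples, the sections also cannot tell fewer cells of a type from less RNA per cell.

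**Figure D1:**
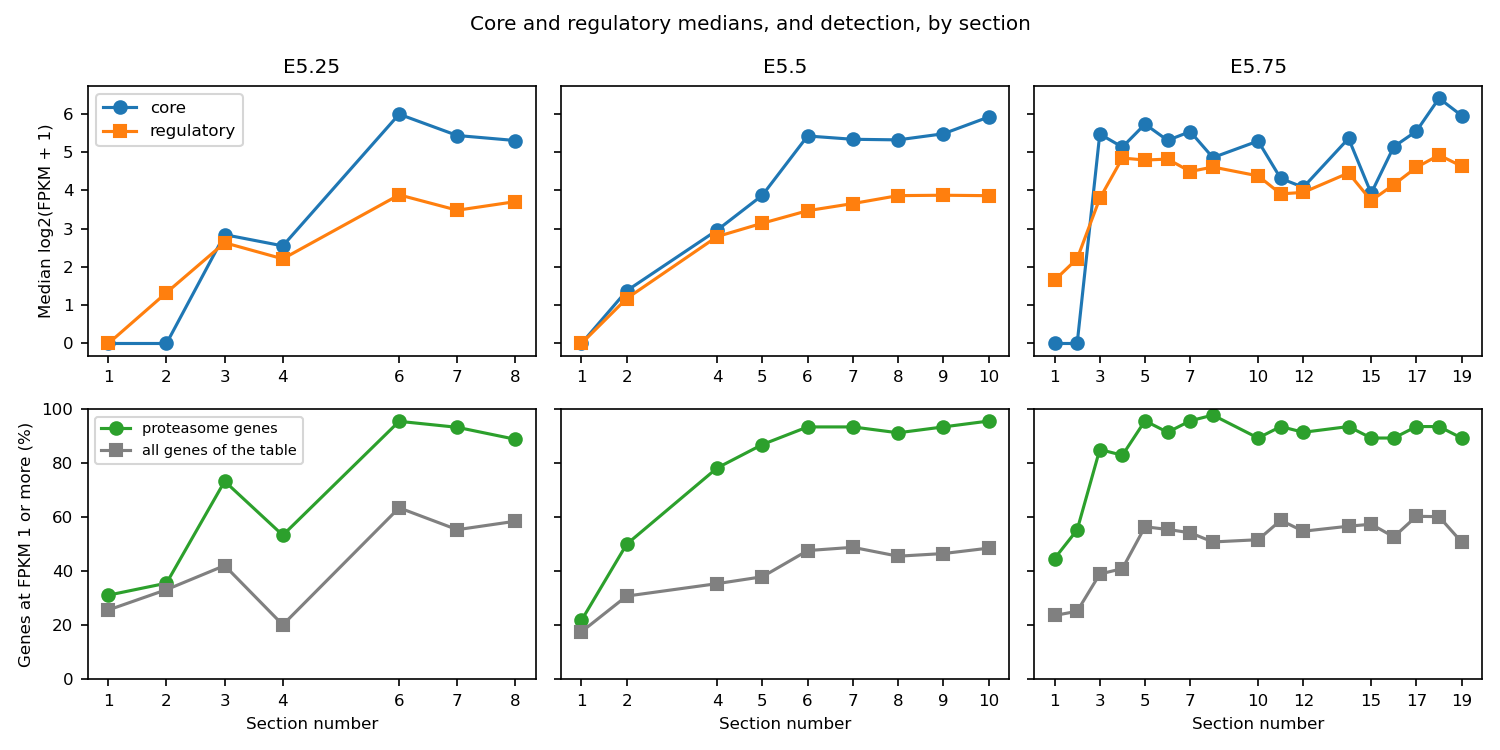
Medians and detection by section number in the 3 stages. Upper panels show the median log2(FPKM + 1) of core (circles) and regulatory (squares) genes; lower panels show the percent of proteasome genes and of all genes of the table with FPKM of at least 1. Both medians are 0 in section 1 of E5.5, where 10 of 46 proteasome genes are detected.

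Most proteasome genes stood at moderate to high levels wherever RNA was well detected, and ring genes stood above ATPases and these above the other cap subunits in the 3 stages. In mean FPKM over sections, a scale that allows for gene length, the constitutive beta ring genes had a median of 35.9 at E5.25, 43.6 at E5.5 and 67.1 at E5.75. The alpha ring genes had medians of 33.3, 35.2 and 41.2 at the same stages. The ATPases had 20.4, 17 and 35.3, and the other cap subunits 14.7, 11.2 and 21.9. The tables were normalized separately, so levels are compared within a stage only. Core genes thus stood above cap genes at each stage. At E5.75 the highest member of the core was the beta ring gene Psmb3, with 0, 6.58 and 8.11 as the lowest, median and highest log2(FPKM + 1) of 17 sections. The highest member of all was the cap ATPase gene Psmc4, with 0, 7.65 and 8.85. Psmc4 averaged 196 FPKM at E5.75, where it ranked 1 of 47, and 16 FPKM at E5.5 and 15.4 FPKM at E5.25. The lowest member was Psma8, the alpha subunit of germ cells, listed at 0 in 14 of 17 sections and at most at 1.5. The inhibitor gene Psmf1 was low, with 0, 1.44 and 2.90. Among the cap genes and their chaperones Psmd10 (gankyrin) was lowest, with 0, 1.38 and 3.20.

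**Figure D2:**
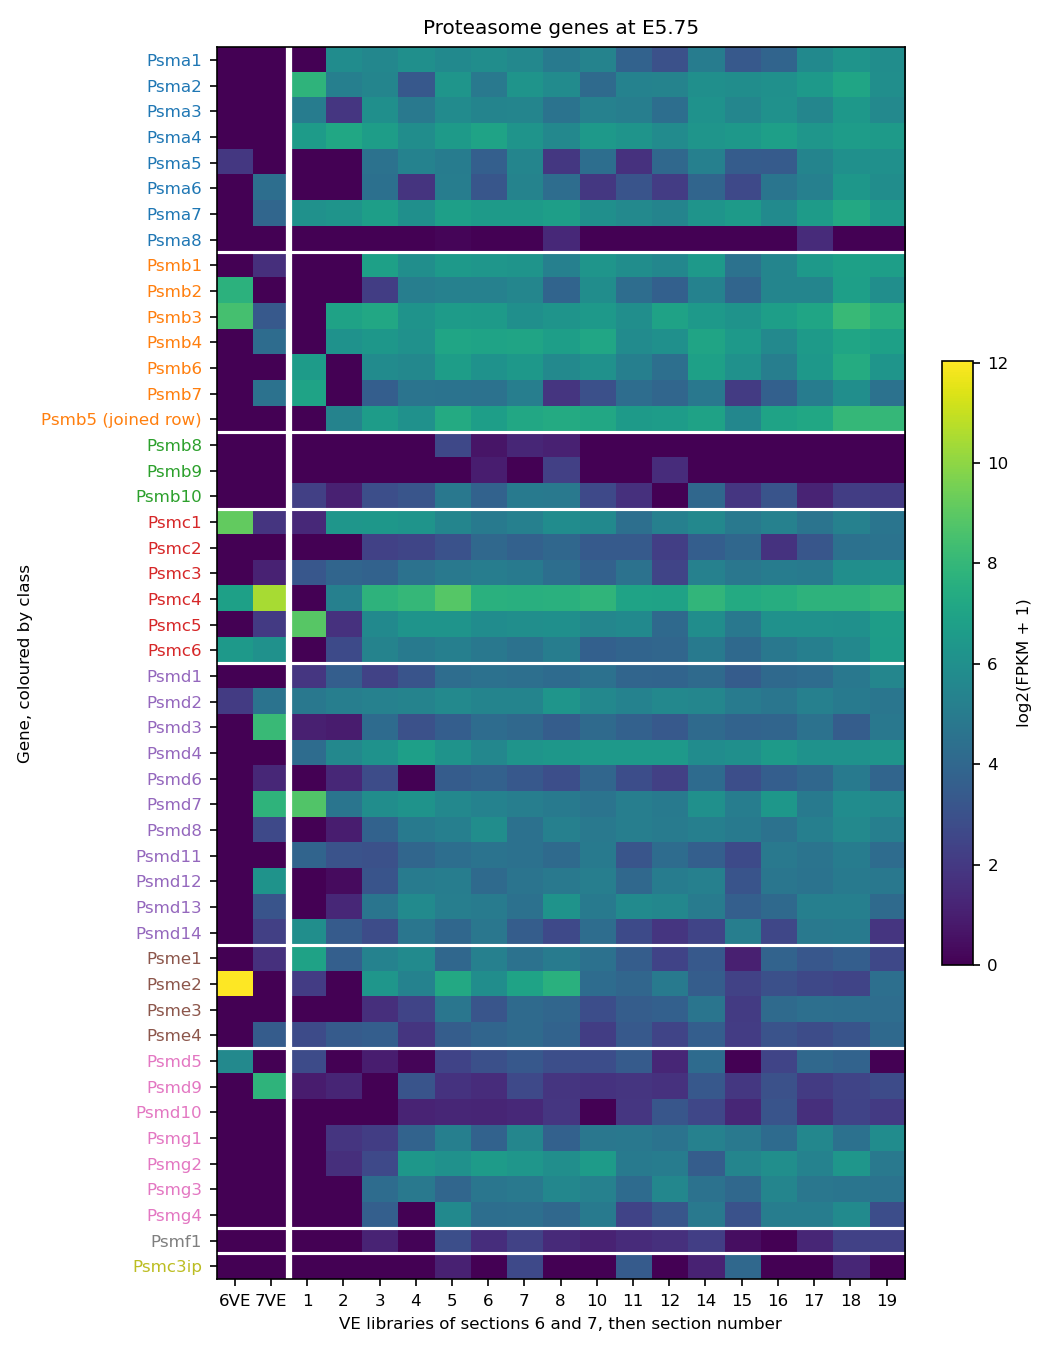
Log2(FPKM + 1) of the 47 proteasome genes and the joined Psmb5 row at E5.75. Rows are genes, coloured and ruled off by class. The first 2 columns are the VE libraries of sections 6 and 7 and the others are sections in order of number. Psmc4 is bright in nearly every column, Psmb8, Psmb9 and Psma8 are dark, and Psme1 and Psme2 are mostly brighter in sections 3 to 8 than in sections 10 to 19.

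At E5.75 the question was which proteasome genes varied with section number. A line in section number was fitted to each gene over 17 sections with limma, and the change is its fitted log2 difference from the first to the last section. Of 47 genes tested, 10 rose and 1 fell (adjusted p under 0.05, Benjamini-Hochberg adjustment over all 11149 genes tested), while 21% of all genes passed, 18.9% upward and 2.07% downward. The proteasome genes' share is thus near that of all genes. Their median change was 1.46, against 0.80 for all genes tested. Core genes had a median change of 0.71 (2 of 17 rose) and regulatory genes 1.49 (7 of 24 rose and 1 fell). The remaining rise was that of a core chaperone.

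The 10 rises came from the alpha ring, the constitutive beta ring, the ATPases, the other cap subunits, the activators and the chaperones. In the core, the beta ring gene Psmb2 had 0, 5.27 and 6.80 as its lowest, median and highest log2(FPKM + 1) and rose by 3.95 ± 1.03 (SE, adjusted p = 0.00949, limma). The alpha ring gene Psma6 had 0, 3.91 and 6.37 and rose by 3.45 ± 1.07 (adjusted p = 0.0256). Both were listed at 0 in sections 1 and 2 and highest in section 18. In the cap, the ATPase gene Psmc2 had 0, 3.39 and 4.6 and rose by 2.46 ± 0.84. The non-ATPase gene Psmd6 had 0, 3.34 and 4.93 and rose by 2.92 ± 0.79. Psmd8, Psmd3 and the scaffold gene Psmd1 rose by 2.83, 1.99 and 1.74. Of the activators, Psme3 had 0, 3.69 and 4.73 and rose by 2.99 ± 0.86. Of the chaperones, Psmg1 had 0, 4.58 and 5.84 and rose by 3.29 ± 0.82, and Psmd10 rose by 2.23 ± 0.66. In section 1, 8 of these 10 genes were listed at 0, and Psmd1 and Psmd3 stood at 1.91 and 1.06.

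The rises were not called without those sections. Without sections 1 and 2, none of the 10 rises passed, and 1033 of 11016 genes still passed upward. Without section 1 alone 4 members rose and without section 2 alone 5 did, while 13.2% and 13% of all genes rose. Without section 3 or 5 alone 16 members passed, while 19.4% or 22.6% of all genes did. With quantile normalization 2 rose and 1 fell (845 and 500 of all genes, against 2108 and 231 as deposited). The calls of Psmb2, Psmd6, Psmd10 and Psmg1 held without any single section, while Psmd1 was lost without any of 13 sections and Psmd3 without any of 12. Psmc2 was lost without section 1, 2, 14, 15, 18 or 19, Psma6 without section 1, 2, 18 or 19, Psmd8 without section 1, 2 or 18 and Psme3 without section 1 or 2. Among the members that did not pass, the alpha ring gene Psma7 had 5.42, 6.48 and 7.27, and the cap gene Psmd2 had 4.72, 5.35 and 6.29; both genes were detected in all 17 sections. The ATPase gene Psmc1 had 1.39, 5.27 and 6.36 and was lowest in section 1. The chaperone gene Psmd5 had 0, 2.75 and 4.23, and Psmc3ip, the namesake, had 0, 0 and 4.06.

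**Figure D3:**
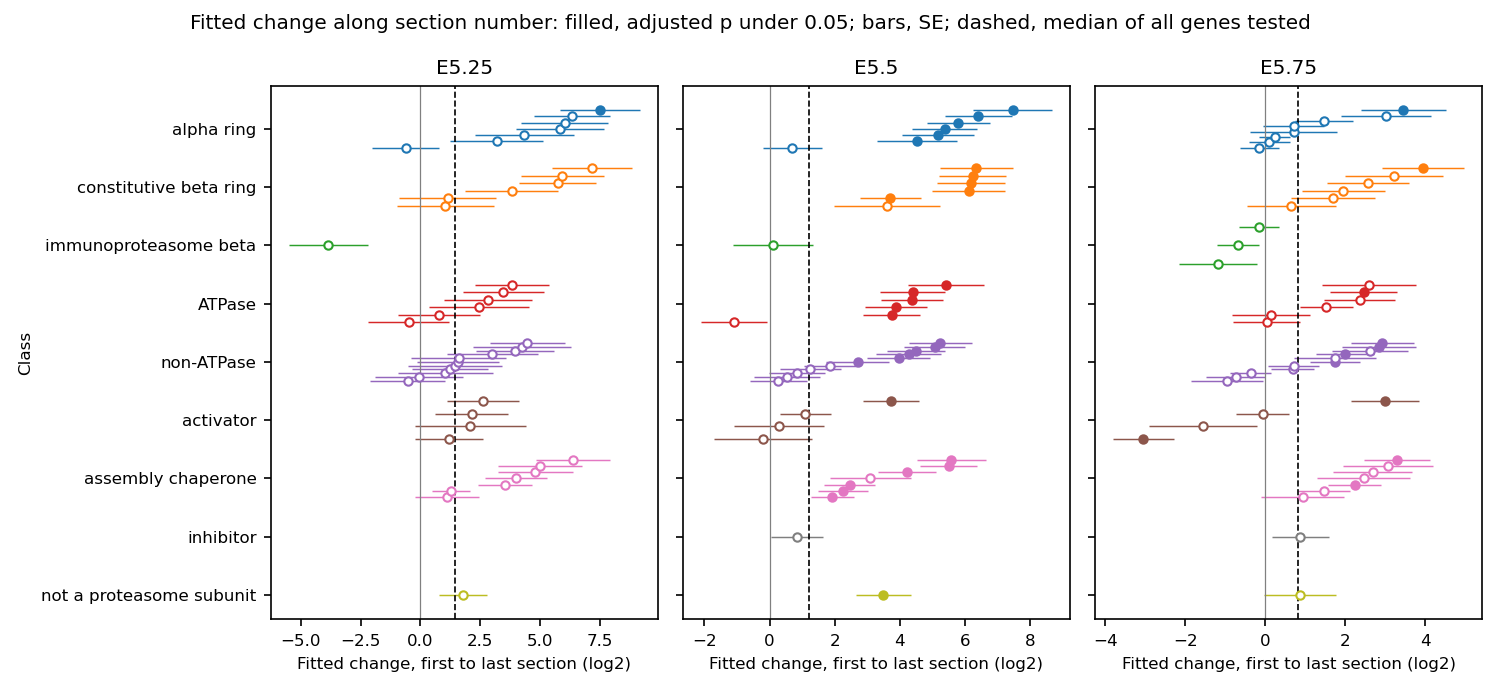
Fitted change of each proteasome gene from the first to the last section (log2) in the 3 stages, by class, with its SE. Filled points have an adjusted p under 0.05 and the dashed line is the median of all genes tested. At E5.75 the single filled point below 0 is Psme1, at -3.05.

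Psme1 and Psme2, the 2 genes of PA28 alpha-beta, were higher at E5.75 in sections 3 to 8, where epiblast genes were high, than in most or all of sections 10 to 19. Psme1 had 4.0, 5.13 and 5.78 as lowest, median and highest log2(FPKM + 1) in sections 3 to 8, and 1.05, 3.35 and 4.51 in sections 10 to 19. In sections 1 and 2 it stood at 6.92 and 3.66, so section 1 was its highest, and sections 3 to 8 and 10 to 19 overlapped. Psme1 fell by 3.05 ± 0.77 from the first to the last section (SE, n = 17, adjusted p = 0.00744, limma with Benjamini-Hochberg adjustment). Psme2 had 5.32, 6.65 and 7.63 in sections 3 to 8, and 2.37, 3.55 and 4.95 in sections 10 to 19, so that the highest of the later sections lay below the lowest of the earlier ones. In sections 1 and 2 it stood at 2.16 and 0. Its change over all 17 sections was -1.55 ± 1.35 and did not pass (adjusted p = 0.422). Without sections 1 and 2, Psme2 fell by 4.33 ± 0.76 (adjusted p = 0.00067) and Psme1 by 2.77 ± 0.66 (adjusted p = 0.00767), while 374 of 11016 genes passed downward. With a covariate for how many genes each section yielded, Psme2 fell by 5.93 ± 1.45 (adjusted p = 0.0163) and Psme1 did not pass (-2.79, adjusted p = 0.135). The call of Psme1 held without any single section, with changes of -3.57 to -2.41. Psme2 was singled out after its values were seen, and its change did not pass under the other 24 of 26 alternatives. The marker genes divided the sections in the same place: 10 epiblast markers summed to 516 to 913 FPKM in sections 3 to 8 and to 43.2 to 177 FPKM in sections 10 to 19, and 10 markers of extraembryonic ectoderm and ectoplacental cone to 9.99 to 34.5 FPKM in sections 3 to 8 and 245 to 1771 FPKM in sections 10 to 19. Psme1 lies on chromosome 14 from 55578123 to 55581529 and Psme2 on the same chromosome from 55587441 to 55591113 (mm10). Decidual markers (8 genes) summed to 0.412 to 16.2 FPKM in sections 3 to 8 and to 2.95 to 310.0 FPKM in sections 10 to 19, and the part of the cell types in the levels of Psme1 and Psme2 was not tested. A near-identical gene, Psme2b, lies on chromosome 11, and reads may have been split between it and Psme2, which makes the level of Psme2 uncertain.

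The other activators did not share this pattern. Psme3 stood at 1.60 to 4.73 in sections 3 to 8 and at 2.11 to 4.68 in sections 10 to 19, and it rose over all sections, as given above. Psme4 stood at 1.85 to 4.14 in sections 3 to 8 and at 2.13 to 4.12 in sections 10 to 19, and did not pass. For Psme3 and Psme4 the 2 sets of sections overlapped almost wholly.

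In the earlier stages Psme2 was likewise highest in a middle section, and so was Psme1 at E5.5. At E5.5, Psme2 stood at 0, 2.92, 6.16 and 4.73 in sections 1, 2, 4 and 5, and at 2.34, 1.59, 1.87, 1.91 and 2.66 in sections 6 to 10. Psme1 stood at 0, 4.29, 5.08 and 4.77 in sections 1, 2, 4 and 5, and at 3.24, 1.94, 3.90, 2.85 and 2.49 in sections 6 to 10. For both genes sections 4 and 5 were the highest, and neither line in section number passed. At E5.25, Psme2 stood at 0, 0, 5.66 and 8.54 in sections 1 to 4, and at 0.73, 3.46 and 3.96 in sections 6 to 8. Psme1 stood at 0 in section 1 and between 2.54 and 3.23 in the other 6 sections. Section 4 of E5.5, where Psme1 and Psme2 were highest, also had the highest sum of epiblast markers of its stage, at 237 FPKM, and so had section 4 of E5.25, at 284 FPKM, the library with the fewest genes detected (20.1%). At E5.75 the highest sum was in section 5, at 913 FPKM, while Psme2 was highest in section 8 (694 FPKM) and Psme1 in section 1 (220.3 FPKM).

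**Figure D4:**
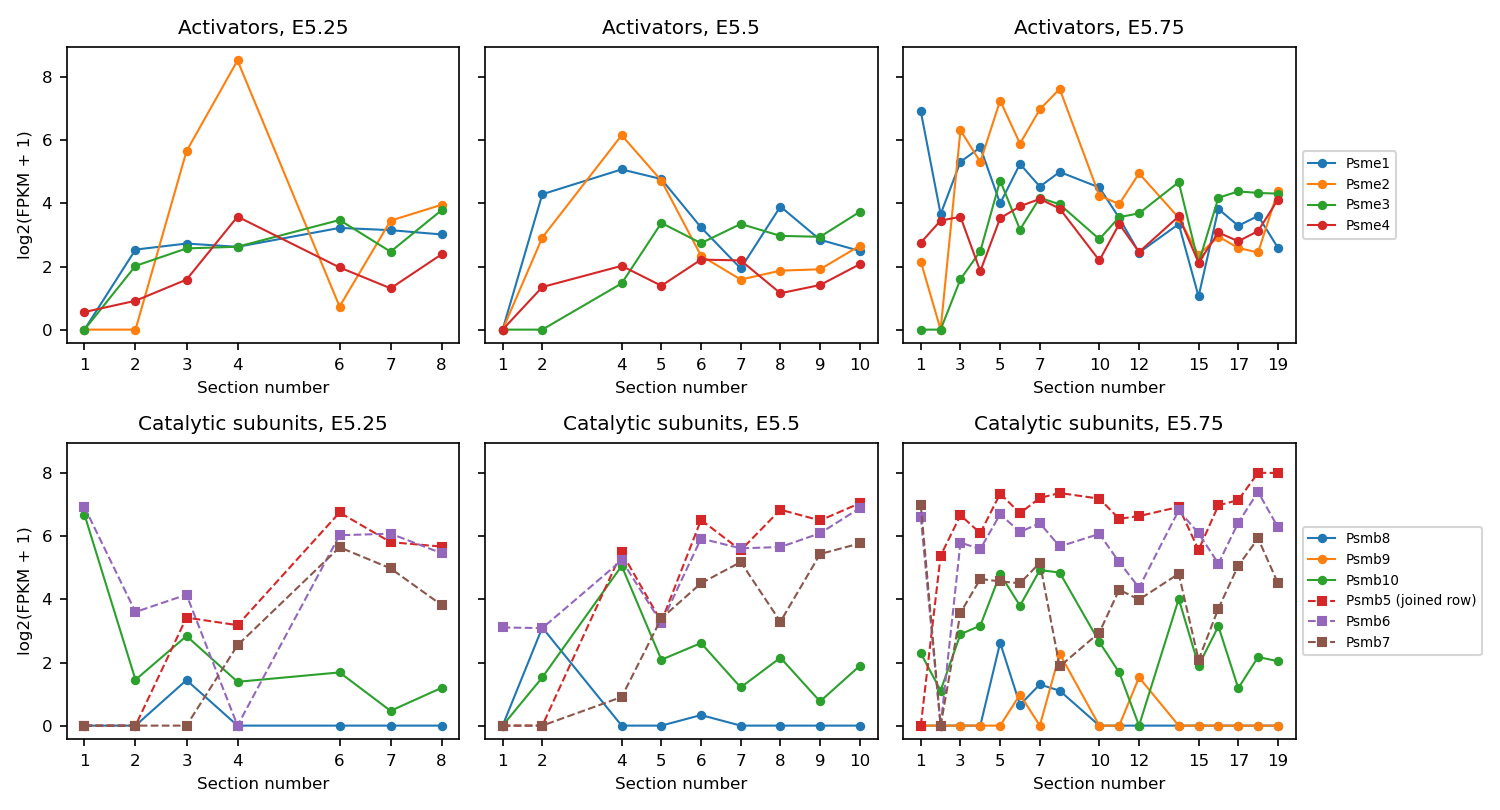
Log2(FPKM + 1) by section number of the 4 activator genes (upper panels) and of the immunoproteasome genes Psmb8, Psmb9 and Psmb10 (circles) with their constitutive counterparts Psmb5, Psmb6 and Psmb7 (squares, dashed; lower panels). Psme2 is highest in section 4 of E5.25 and E5.5 and in section 8 of E5.75, and Psmb8 and Psmb9 lie on 0 in most sections.

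Among the catalytic subunits the constitutive genes dominated, and of the immunoproteasome genes Psmb10 alone was widely present. At E5.75, Psmb8 was listed at 0 in 13 of 17 sections and stood at 2.63, 0.66, 1.30 and 1.11 in sections 5 to 8. Psmb9 was listed at 0 in 14 of 17 and stood at 0.98 in section 6, 2.28 in section 8 and 1.53 in section 12. At E5.25 Psmb8 was above 0 in section 3 only, at 1.44, and at E5.5 in sections 2 and 6, at 3.11 and 0.33. Psmb8 and Psmb9 are neighbours on chromosome 17, at 34197721 to 34201454 and 34181987 to 34187764 (mm10). Psmb10 had 0, 2.65 and 4.93 over 17 sections, with 2.90, 4.31 and 4.93 as lowest, median and highest in sections 3 to 8 and 0, 2.04 and 4.02 in sections 10 to 19. Its change of -1.19 ± 0.98 did not pass (adjusted p = 0.395). The constitutive genes were far higher, with medians of 6.93 for the joined Psmb5 row, 6.10 for Psmb6 and 4.52 for Psmb7.

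The balance within each pair of exchangeable subunits was tested as the log2 difference of the immunoproteasome gene and its constitutive counterpart, over 5 pairs and stages with enough values and with p-values adjusted over these 5. Psmb10 minus Psmb7 was above 0 in 3 of 7 sections at E5.25, in 2 of 9 at E5.5 and in 3 of 17 at E5.75. Along section number it fell by 9.61 at E5.25 (2-sided exact permutation test, n = 7, p = 0.00754, adjusted p = 0.0188) and by 6.12 at E5.5 (exact permutation test, n = 9, p = 0.0273, adjusted p = 0.0455). At E5.75 its change of -1.83 did not pass (permutation test, n = 17, adjusted p = 0.249). At E5.25 Psmb10 stood at 6.69 in section 1 and at 0.47 to 2.84 in the others, while Psmb7 had a listing of 0 in sections 1 to 3, 2.55 in section 4 and 3.82 to 5.66 from section 6 on. At E5.5 Psmb10 was highest in section 4 at 5.07, where Psmb7 stood at 0.91, and Psmb7 was at 3.29 to 5.78 from section 5 on. Without sections 1 and 2 the fall at E5.25 was 5.74 and did not pass (exact permutation test, n = 5, adjusted p = 0.167). It was also lost without section 1, where it was 6.38 (adjusted p = 0.0787 by the exact permutation test), and without section 4 (adjusted p = 0.0602 by the exact permutation test). The fall at E5.5 did not pass without section 2, 5, 6, 7, 9 or 10 (exact permutation test, adjusted p = 0.0596 to 0.133). At E5.75 Psmb10 minus Psmb7 fell by 3.18 without section 1 (permutation test, adjusted p = 0.0342), where Psmb7 stood at 7.0. It did not pass under the other 19 of 20 alternatives. Psmb8 minus Psmb5 fell by 3.58 at E5.75 (permutation test, n = 17, p = 0.0001, adjusted p = 0.0005). With Psmb8 at 0 in most sections, this difference is in most sections that of Psmb5 alone, which was listed at 0 in section 1 and was highest in section 18 at 8.02. Without section 1 the fall was 1.91 (unadjusted permutation p = 0.00212). Psmb9 minus Psmb6 changed by -1.84 and did not pass (adjusted p = 0.246).

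At E5.5, 30 of 44 proteasome genes tested rose and 0 fell, while 30.9% of all 8251 genes passed, 28.3% upward and 2.61% downward. The members' share was above that of all genes, and this difference was not tested. It was smaller among well expressed genes. With a filter at FPKM 5 in place of 1, 30 of 40 members and 54.9% of all 3420 genes rose. The median changes were then 4.10 and 2.59. In the main fit the median change of the proteasome genes was 3.81, against 1.22 for all genes tested. Core genes had a median change of 5.59, with 11 of 14 rising, and regulatory genes 2.59, with 15 of 24 rising. Other measures moved along the same sections. Rn45s took 69.8% of the summed FPKM in section 1 and 2.61% in section 10, and 7 of 10 markers of extraembryonic ectoderm and ectoplacental cone rose, with a median change of 4.74. Visceral endoderm markers summed to 765 FPKM and decidual markers to 191 FPKM in section 1, and their part in the rise was not tested. The alpha ring gene Psma2 stood at 0 in sections 1 and 2, 0.57 in section 4 and 5.49 to 6.41 from section 5 on, and rose by 7.47 ± 1.22 (SE, n = 9 section numbers, adjusted p = 0.000917, limma). Psmb7 rose by 6.23 ± 1.02 and Psmb3 by 6.13 ± 1.12. In the cap, the ATPase gene Psmc5 rose by 5.41 ± 1.16 and Psmd6 by 5.24 ± 0.97. The chaperone gene Psmg1 stood at 0 in sections 1 and 2 and at 5.17 in section 10, and rose by 5.5 ± 0.88. Among 4 activators only Psme3 passed, with a rise of 3.73 ± 0.87. Psma4 stood at 4.36 to 6.29, Psmc3 at 2.89 to 5.89 and Psmd7 at 4.28 to 5.95 over the 9 section numbers, and none of the 3 passed. These 3 were well above 0 in section 1, where 36 of the 46 genes were below an FPKM of 1.

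Most calls at E5.5 were also lost without sections 1 and 2. Then 5 of 44 genes rose, namely Psma5, Psmb2, Psmb7, Psmd13 and Psmg1, with changes of 3.64 to 4.49, while 309 of 7755 genes passed, 288 of them upward. With a covariate for how many genes each section yielded, 0 of 44 passed, and 0 of all genes. By limma at an unadjusted p under 0.05, 2 of the 44 proteasome genes and 411 of all genes did. Of the 30 calls, 25 held without any single section number. Psma7 was lost without section 1, Psmd5 and Psmd10 without section 1, 2, 9 or 10, Psmd9 without section 1, 2, 4, 9 or 10, and Psmd14 without any of 7. With quantile normalization 17 of the 44 rose (844 of all genes rose and 324 fell).

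At E5.25, 1 of 43 proteasome genes tested passed, while 0.406% of all 7148 genes did, 0.378% upward and 0.028% downward. Psma2 stood at 0 in sections 1 and 2, 2.65 and 3.41 in sections 3 and 4, and 6.63, 6.75 and 6.24 in sections 6 to 8, and rose by 7.52 ± 1.68 (SE, n = 7, adjusted p = 0.0455, limma). All 3 of the later sections lay above the 4 earlier ones. At an unadjusted p under 0.05, 18 of the 43 and 34.9% of all genes passed. The median change was 2.84 for the proteasome genes and 1.45 for all genes. Core genes had a median change of 5.05 and regulatory genes 1.85. The number passing was 0 without section 1, 6 or 7, 2 without section 8, 5 without section 2, 8 without section 3 and 11 without section 4, and 0 without sections 1 and 2. The share of all genes passing was 1.59% without section 8, 2.74% without section 2, 7.47% without section 3 and 11.6% without section 4. It was 0.0484% to 0.308% in the fits in which 0 members passed. Where the members' number was 0, 11 to 18 of the 41 or 43 tested had an unadjusted p under 0.05 by limma.

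Core and regulatory genes thus differed in their median change at E5.25 and E5.5, by 3.21 and 3.0 (log2, core minus regulatory), and by -0.78 at E5.75. These differences are a description with no test. Without sections 1 and 2 they were 1.20, 0.99 and -0.23. In sections 6 to 8 of E5.25 the core median log2(FPKM + 1) was 5.99, 5.43 and 5.30 and the regulatory median 3.88, 3.48 and 3.70. In section 4 of that stage the core median was 2.55 and the regulatory median 2.21. At E5.5 the core median was 2.96 in section 4 and 5.91 in section 10, and the regulatory median 2.79 and 3.86. From section 3 of E5.75 on, the core median lay between 3.92 and 6.40 and the regulatory median between 3.73 and 4.92. The core median was above the regulatory one in each section from section 3 on in all stages. The summed FPKM of core genes was 1.49, 0.345, 1.05 and 0.594 times that of regulatory genes in sections 1 to 4 of E5.25, and 1.64 to 2.26 times in sections 6 to 8. At E5.5 the ratio was 0.702 to 1.46 up to section 5 and 1.74 to 2.54 from section 6 on. The E5.75 sections had ratios of 0.549 to 1.69 with no such order. They were below 1 in sections 1, 4, 5, 6, 8, 10, 11, 12 and 16, where the regulatory sum was the higher. The core sums leave out the joined Psmb5 row, which averaged 122 FPKM at E5.75. The regulatory sums include Psmc4, which averaged 196 FPKM there. The E5.75 ratios therefore show no order of the 2 classes as a whole.

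Few proteasome genes were detected in the 2 VE libraries, though some of those stood high. Of 47, 9 were detected in the VE library of section 6 and 22 in that of section 7, against 43 and 45 in the other libraries of sections 6 and 7. Of the visceral endoderm markers, 7 and 6 of 15 were detected, with sums of 350.4 and 1065 FPKM, against 1.75 to 51.9 FPKM in sections 3 to 8. Apoe, an apolipoprotein of that tissue, stood at 7.99 and 9.22 in the VE libraries, which is 254.0 and 593.9 FPKM of their sums. Ttr and Amn were listed at 0 in the VE library of section 6 and stood at 6.44 and 7.71 in that of section 7. The epiblast gene Pou5f1 stood at 0 and 6.73. Of the epiblast markers, 2 and 6 of 10 were detected in the VE libraries, with sums of 207.7 and 493.3 FPKM. These markers summed to 516 to 913 FPKM in sections 3 to 8 and to 43.2 to 177 FPKM in sections 10 to 19. The mixture of tissues in the VE libraries was not tested. All proteasome genes together made up 1.89% and 1.06% of the summed FPKM without Rn45s in the VE libraries, against 0.903% and 0.924% in sections 6 and 7, and the core sum was 0.115 and 0.0365 times the regulatory sum. These sums, 5600 and 2438 FPKM for all members, came mostly from 1 regulatory gene in each VE library. That gene was Psme2 in section 6 and Psmc4 in section 7, with values given below. The shares and ratios therefore describe no shift of the whole family. Of all genes, 11% and 15.8% were detected in the VE libraries, and Rn45s took 62.2% and 48.8% of the summed FPKM. Visceral endoderm markers also had high sums in sections 1 and 2 of E5.75, at 659 and 128 FPKM, where fewer proteasome genes were detected. Only 5 of the 15 were detected in each of these sections, and Apoe made up 431 and 69.9 FPKM of the sums. Ttr was listed at 0 in section 1 and stood at 45.5 FPKM in section 2. In sections 14, 15 and 16 the visceral endoderm markers summed to 160, 298 and 140 FPKM, and 44, 42 and 42 of 47 proteasome genes were detected. The part of this tissue in detection was not tested. Levels were not all low in section 1, where Psmc5 (8.91), Psmd7 (8.75) and Psma2 (7.81) were at their highest of the stage.

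Of 43 proteasome genes tested in the VE libraries against sections 6 and 7 (2 against 2), 22 were lower and 0 higher, near the 57.2% of all 6413 genes that passed, 56.6% lower and 0.624% higher. At an unadjusted p under 0.05, 23 of the 43 and 62.3% of all genes passed. The median change was -3.68 for the proteasome genes and -2.09 for all genes. Core genes had a median of -4.73, with 7 of 14 lower, and regulatory genes -2.56, with 10 of 24 lower. Of the 22 lower genes, 17 were listed at 0 in both VE libraries and the other 5 in 1 of them. A gene at 0 in both VE libraries was tested only because it passed the minimum in both sections, so its direction was fixed by that filter, and the count of lower genes supports no direction. Psma4 was listed at 0 in both VE libraries and stood at 6.98 and 6.25 in sections 6 and 7. Psmb6 was likewise at 0 and 0 in the VE libraries and at 6.14 and 6.42 in sections 6 and 7. No fold is given against a group listed at 0. Leaving out the VE library of section 6 or 7 gave 39 or 43 passing genes, 33 or 37 of them lower, while 85.1% or 91% of all genes passed. The VE group is then 1 library, assumed to vary like the 2 sections. Leaving out the section 6 or 7 library gave 0 of the 26 members then tested, also by limma at an unadjusted p under 0.05. With quantile normalization 0 of the 43 passed and 20 had an unadjusted p under 0.05 by limma. Of all 6413 genes, 0 passed and 3090 had such a p.

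A few members were higher in a VE library than in sections 6 and 7, and the VE libraries disagreed on most of them. Psme2 stood at 12.04 in the VE library of section 6 and at 0 in that of section 7, and at 5.90 and 6.98 in the other libraries of these sections. Psmc4 stood at 6.83 and 10.47 in the VE libraries and at 7.65 and 7.60 in the sections. Psmc1 stood at 9.14 and 1.88 in the VE libraries and at 4.95 and 5.26 in the sections. Psmc6 stood at 6.49 and 6.09 in the VE libraries and at 4.84 and 4.52 in the sections, and of the 11 it alone was above both sections in both VE libraries. In all, 11 members were higher in at least 1 VE library than in both sections, also Psmb2, Psmb3, Psmd3, Psmd5, Psmd7, Psmd9 and Psmd12. None of the 11 passed.

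Genes that work with the proteasome were compared from a list of 30 (ubiquitin genes, shuttle factors, deubiquitinases, assembly and transcription factors). At E5.75, 4 of 27 tested rose and 0 fell, while 18.9% of all genes rose. They were AI314180, the proteasome adaptor Ecm29 (4.64 ± 0.92, SE, adjusted p = 0.00124, limma), the deubiquitinases Usp14 (3.16 ± 0.73) and Uchl5 (2.70 ± 0.90), and Nfe2l2, a transcription factor of the antioxidant response (2.63 ± 0.80). AI314180 stood at 3.62 to 4.91 in sections 3 to 8 and at 5.43 to 6.71 in sections 10 to 19, above all of sections 3 to 8. Without sections 1 and 2 the rises of AI314180, Usp14 and Nfe2l2 still passed and that of Uchl5 did not. At E5.5, 13 of 26 rose and 0 fell, while 28.3% of all genes rose, among them the cap subunit Shfm1 (8.43 ± 1.16), the core maturation factor Pomp (6.57 ± 1.24) and Uchl5 (3.80 ± 0.77). Without sections 1 and 2 the change of Pomp was 1.58 and did not pass, and with the covariate for genes yielded none of these 3 passed. At E5.25, 0 of 25 passed and 8 had an unadjusted p under 0.05 by limma, while 0.406% and 34.9% of all genes did. In the VE libraries 16 of 25 were lower than in sections 6 and 7, while 56.6% of all genes were.

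Of 10 genes of antigen presentation and interferon response, 2 of 7 tested rose at E5.75 and 0 fell, while 18.9% of all genes rose and 2.07% fell. The 2 were the class I gene H2-K1 (5.78 ± 0.79, adjusted p = 2.74e-05, limma) and its partner B2m (2.92 ± 0.95). H2-K1 stood at 0 to 3.70 in sections 1 to 8 and at 4.18 to 5.59 in sections 10 to 19, the reverse of Psme2. Irf1, the interferon-regulatory factor that binds interferon-response motifs, stood at 4.99, 0, 2.73, 2.51, 2.61 and 3.72 in sections 3 to 8, with 2.90 in section 10 and 0 to 1.52 from section 11 on. Its change of -1.71 ± 1.04 did not pass over all 17 sections (adjusted p = 0.241, limma), and without sections 1 and 2 it fell by 3.14 (adjusted p = 0.0302). Under the other 25 of 26 alternatives the change of Irf1 did not pass. The call of H2-K1 held under each of 26 alternatives, and that of B2m was lost under 12. Both H2-K1 (4.67 ± 0.92) and B2m (3.87 ± 1.03) also rose at E5.5, 2 of 4 tested, while 28.3% of all genes rose. At E5.25, 0 of 3 passed and 1 had an unadjusted p under 0.05 by limma, while 0.406% and 34.9% of all genes did. All 7 in the table were listed at 0 in both VE libraries.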

How the data were processed

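The deposited tables, 1 per stage, hold log2 values of FPKM. They were read as log2(FPKM + 1) from the table names and the values. TopHat2 2.0.4, Cufflinks 2.0.2 and build mm10 are named in the submitters' processing notes. The annotation and normalization are not given in the sources used here. At E5.5 the authors deposited 1 joined value for 7 of 8 section numbers with parts A and B, and the columns of section 10 were averaged. In 1 label its second part is put in section 11, and 33 of 44 members and 33.6% of all genes passed with it there. At E5.75, sections 9 and 13 were labelled but had no column of values to analyse.

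Genes with FPKM of at least 1 in at least 2 fitted samples entered 2-sided limma fits (version 3.58.1 under R 4.3.3, trended eBayes, with Benjamini-Hochberg adjustment over all genes, threshold 0.05). Stages were fitted separately against section number scaled from 0 to 1. VE libraries were compared with sections 6 and 7, without a block. Pair differences used permutation tests (SciPy 1.17.1, exact under 10 sections, otherwise 100000 resamples). The fits were checked on simulated data with planted changes and independent noise for each gene. Estimates were close to the truth, but the VE design made no call and so found none of the planted changes. Genes lost together from a whole library were not simulated, so this check does not cover calls that depend on detection. The deposited tables hold no counts, so depth and its precision are unknown. Genes shown in full were the catalytic subunits, the smallest and largest p of each class at E5.75, falling members, and the highest and lowest by mean. The members and lists were chosen with earlier results of these data known. Alternatives were other pseudocounts and filters, rescaling without Rn45s, quantile normalization, eBayes without trend, a detection covariate, other section choices and leaving out each section.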

Additional observations from a re-analysis of the deposited data

Results flagged for a closer look

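Within 49 groups of 7 or 9 section values (each full-value gene at E5.25 and E5.5, the core and regulatory medians, the members' share and the core to regulatory ratio), 5 held a value far from the others by Dixon's test. Chance marks about 1 in 20 groups, and section values of a stage differ by position, so they are not replicates of 1 state. At E5.25, Psmb10, the immunoproteasome counterpart of Psmb7, was highest in section 1 at 6.69, with 2.84 next. At E5.25, the ATPase gene Psmc4 was lowest in section 4 at 1.40, with 3.46 next. At E5.25, the activator gene Psme1 was lowest in section 1 at 0, with 2.54 next. At E5.5, the alpha ring gene Psma7 was lowest in section 1 at 0, with 4.36 next. At E5.5, the activator gene Psme4 was lowest in section 1 at 0, with 1.15 next. In these sections 25.6%, 20.1% and 17.5% of all genes were detected (sections 1 and 4 of E5.25 and section 1 of E5.5), and the part of detection in the 5 values was not tested.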

How the results depend on the processing

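The counts of passing proteasome genes and the core minus regulatory differences in median change both depended on the processing. At E5.25 the count of 1 became 12 with a pseudocount of 0.1, 13 with a filter at FPKM 5 and 8 with eBayes without trend (all genes 14.1%, 24.8% and 7.19%). It became 0 with a pseudocount of 5, no filter, quantile normalization or a covariate for how many genes each section yielded. In these settings 0 of all genes passed. Without sections 1 and 2 the count was also 0, and 0.278% of all genes passed. At E5.5 the count of 30 became 17 with quantile normalization, 0 with the covariate and 5 without sections 1 and 2 (all genes 14.2%, 0% and 3.98%). At E5.75 the count of 11 became 7 after rescaling without Rn45s, 3 with quantile normalization, 1 with the covariate and 2 without sections 1 and 2 (all genes 15.1%, 12.1%, 5.6% and 12.8%). In the VE comparison the count of 22 became 0 with quantile normalization, where 20 had an unadjusted p under 0.05 by limma. Of all 6413 genes, 0 passed there and 3090 had an unadjusted p under 0.05. Core minus regulatory became -3.61. Core minus regulatory at E5.25 became 2.25 with a pseudocount of 5 and 1.20 without sections 1 and 2. At E5.5 it became 2.41 and 2.23 with pseudocounts of 0.1 and 5, 1.85 with a filter at FPKM 5, 0.87 with the covariate and 0.99 without sections 1 and 2. At E5.75 it was -0.18 and -0.16 with pseudocounts of 0.1 and 5 and -0.10 with quantile normalization, and it turned to 0.09 with a filter at FPKM 5 and 0.04 with the covariate. Leaving out 1 section or library each time gave counts of 0 to 11 at E5.25, 26 to 30 at E5.5, 5 to 16 at E5.75 and 0 to 43 in VE, and core minus regulatory of 2.41 to 3.49, 2.26 to 3.31, -1.03 to -0.06 and -2.25 to -0.70. In the fits along sections that left out 1 section, 0.0484% to 11.6% of all genes passed at E5.25, 21.1% to 32.5% at E5.5 and 15.1% to 22.6% at E5.75. Without section 3 or 5 of E5.75 the count was 16 (all genes 19.4% and 22.6%). Without section 1 it was 5 and without section 2 it was 6 (all genes 15.9% and 15.1%). The cause of these changes was not tested. Quantile normalization moved the median change of all genes to 0.38 at E5.25, 0.44 at E5.5 and 0.16 at E5.75.

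With the covariate the changes of Psma6 (-0.52) and Psma7 (-1.31) at E5.5 and of Psmd8 (-0.58) at E5.75 reversed. Psmb10 minus Psmb7 was lost in 3 of 10 alternatives at E5.25 and 6 of 12 at E5.5, with p adjusted as in the main test. The fitted changes followed through all alternatives were those of passing members, of Psme2 and Psmb10 at E5.75 and of the list genes named with a change. This restriction was made after sign changes among the other members had been seen. Of members that did not pass, 14 of 42 at E5.25, 8 of 14 at E5.5 and 18 of 36 at E5.75 changed sign with the covariate, and 10, 5 and 11 without sections 1 and 2.

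In the VE comparison the fit with section number as a replicate block gave 19 lower members, while 3785 of all 6413 genes were lower. The core minus regulatory difference was the same, at -2.17. Same-numbered libraries did not deviate together (correlation 0.000773 over 6413 genes, 2 pairs). With 2 pairs and few genes detected in the VE libraries, this cannot show whether same-numbered libraries are related. Depth is unknown, and a listing at 0 in a poorly detected library sets no limit on a level.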
